A study of Mus musculus with 6 samples.

Results

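The purine and pyrimidine nucleotide synthesis genes of NIH-3T3 cells, an established mouse fibroblast line, were compared with and without targeting of pyruvate carboxylase. They comprised 35 of the 16540 genes listed in the deposited table, chosen by gene symbol from the pathway: 12 de novo purine genes, 5 de novo pyrimidine genes, 8 genes of base and nucleoside salvage and of the nucleotide kinases, and 10 genes of deoxynucleotide synthesis and turnover. The study compared polyclonal pools of cells that carried Cas9 with the control guide R26 sg1, with PC sg2 or with PC sg5, the last pair directed at pyruvate carboxylase (gene Pcx), with 2 libraries for each guide. Cas9 and the guides were delivered by lentivirus and infected cells were kept by selection in 2 ug/mL puromycin. Every pool, controls included, then spent 48 h in DMEM with 0.2 mM L-glutamine and 10% dialyzed FBS before polyadenylated RNA was sequenced with the NEBNext Ultra kit. The title of the study names collagen production by fibroblasts as its subject, and the comparison of the nucleotide genes asks how the transcripts of this pathway differed when pyruvate carboxylase was targeted.

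Purines are built atom by atom on phosphoribosyl pyrophosphate (PRPP), and pyrimidines are built as a free ring that is joined to PRPP afterwards. Glutamine donates nitrogen to both routes, and aspartate supplies nitrogen to both and carbon to the pyrimidine ring. Folate carries the single carbons of the purine ring and of thymidylate. Pyruvate carboxylase makes oxaloacetate, from which aspartate is formed by transamination. Salvage enzymes recycle free bases and nucleosides, nucleotide kinases raise monophosphates to triphosphates, and ribonucleotide reductase converts ribonucleotides to the deoxy forms used for DNA.

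Of the 35 genes, 23 rose, 8 fell and 4 did not pass the test when the 4 PC libraries were compared with the 2 controls (limma on log2 of the normalised count plus 1, Benjamini-Hochberg adjusted p under 0.05 over 16526 genes). The same comparison called 67.9% of all genes tested, 34.3% as higher and 33.6% as lower, so that a call by itself was common. The nucleotide genes were called higher in 65.7% of cases and lower in 22.9%. Their median log2 fold change was 0.38, with a range from -1.29 to 1.34, beside a median of -0.01 over all genes tested. Scaling by 1 size factor for each library holds the typical gene near no change. Rises and falls are therefore relative to that gene, and a change shared by most genes would not be seen. At least 2-fold higher were Prps1, Umps and Nme1, a class that held 6.48% of all genes. At least 2-fold lower were Tk1 and Samhd1, both of the deoxynucleotide group, a class that held 11.3% of all genes. All 4 PC libraries lay above both controls for 23 of the 35 genes, against 36.6% of all genes, and below both controls for 9, also against 36.6%.

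**Figure D1:**
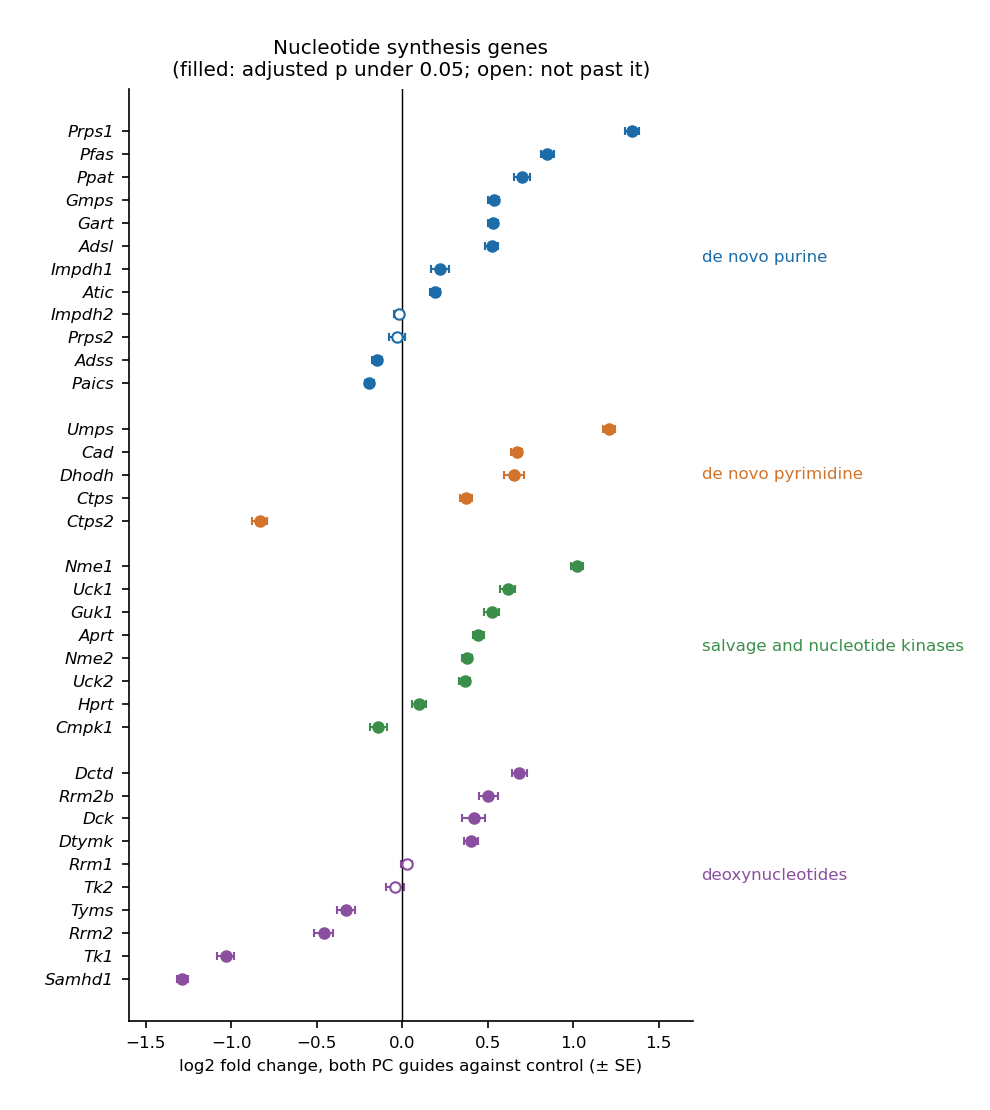
Log2 fold change of each of the 35 genes, both PC guides against control, with the standard error as a bar, on the horizontal axis, and genes sorted within the 4 groups on the vertical axis. Filled points passed an adjusted p of 0.05 and open points (Impdh2, Prps2, Rrm1 and Tk2) did not; the values run from -1.29 for Samhd1 to 1.34 for Prps1.

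The targeted gene was low in every PC library. Pcx stood at 2914 and 3015 normalised counts across the control libraries, 316 and 375 under PC sg2, and 713 and 716 under PC sg5 (log2 fold change -2.58 ± 0.07 SE, adjusted p = 4.30e-18). The remaining transcript was higher with PC sg5 than with PC sg2 (log2 difference 1.05, adjusted p = 6.60e-07). Recovered reads per library ranged from 22895172 to 71710049, the lowest in PC sg5 replicate 2 and the highest in the controls, and every nucleotide gene had at least 396 reads in each library. Whether the 2 libraries with a guide were grown as separate cultures is not stated in the labels, so a p-value measures the spread between samples only, and that spread may be technical. All 11 fibroblast markers (collagens, Pdgfra, Vim and others) were expressed and all 11 fell, beside 33.6% of all genes tested called lower. Their median log2 fold change was -1.51, and their summed level per kb of exon was 46.5% of control (282316 and 291347 in the controls, 130306 to 135885 in the PC libraries). The part of this fall in the values of the nucleotide genes was not tested. Of the markers of other cell types, 1 of 6 leukocyte, 1 of 6 epithelial, 2 of 4 endothelial and 1 of 6 muscle and adipocyte markers were listed, each below 100 normalised counts in the controls. Cdh1 (epithelial) and Des (muscle) fell, and Cd68, Pecam1 and Tek did not pass the test. In bulk RNA, fewer cells of a type and less RNA per cell cannot be told apart.

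Promoter windows from RefSeq (GRCm38.p6, the build of the files) were matched by symbol for 32 of the 35 genes, each running from 250 bases before to 50 bases after an annotated start. Ppat and Paics are shown because they lie head to head on chromosome 5 with starts 276 bases apart on opposite strands, and moved in opposite directions. Prps1 and Prps2 are shown because they are paralogs of which Prps1 rose and Prps2 did not pass the test, and Nme1 because it was the salvage and kinase gene with the highest fold change. Sequences are printed 5′ to 3′ on the strand of the gene, and capitals mark matches to the 3 motifs searched on both strands. These were the E-box CACGTG, the loose pattern TTTNNCGC, called the E2F motif here, and the CHOP-ATF4 motif TGATGNAA. N stands for any base.
Ppat, chr5:76951529-76951828, minus strand: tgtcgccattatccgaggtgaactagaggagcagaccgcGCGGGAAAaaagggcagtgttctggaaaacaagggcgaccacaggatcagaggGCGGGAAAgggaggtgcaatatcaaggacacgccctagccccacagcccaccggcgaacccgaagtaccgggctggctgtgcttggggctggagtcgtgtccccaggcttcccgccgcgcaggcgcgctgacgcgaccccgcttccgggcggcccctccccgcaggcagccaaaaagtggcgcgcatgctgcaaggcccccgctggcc
Paics, chr5:76951052-76951351, plus strand: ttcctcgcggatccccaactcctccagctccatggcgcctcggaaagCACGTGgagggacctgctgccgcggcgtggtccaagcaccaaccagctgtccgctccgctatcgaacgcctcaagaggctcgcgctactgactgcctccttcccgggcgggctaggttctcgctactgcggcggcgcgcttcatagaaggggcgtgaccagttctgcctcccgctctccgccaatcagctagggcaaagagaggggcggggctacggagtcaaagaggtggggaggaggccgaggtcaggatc
Prps1, chrX:140456353-140456652, plus strand: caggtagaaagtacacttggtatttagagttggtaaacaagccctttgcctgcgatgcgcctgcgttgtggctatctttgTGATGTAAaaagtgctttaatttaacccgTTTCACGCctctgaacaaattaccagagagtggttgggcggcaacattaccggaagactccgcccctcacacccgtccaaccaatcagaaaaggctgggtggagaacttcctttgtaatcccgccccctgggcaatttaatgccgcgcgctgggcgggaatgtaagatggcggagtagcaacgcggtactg
Prps2, chrX:167382700-167382999, minus strand: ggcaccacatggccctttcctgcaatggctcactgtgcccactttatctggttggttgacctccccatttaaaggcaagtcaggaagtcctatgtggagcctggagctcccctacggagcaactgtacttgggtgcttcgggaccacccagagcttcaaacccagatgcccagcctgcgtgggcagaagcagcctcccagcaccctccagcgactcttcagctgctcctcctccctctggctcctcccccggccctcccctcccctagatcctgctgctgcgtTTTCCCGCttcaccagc
Nme1, chr11:93968223-93968522, minus strand: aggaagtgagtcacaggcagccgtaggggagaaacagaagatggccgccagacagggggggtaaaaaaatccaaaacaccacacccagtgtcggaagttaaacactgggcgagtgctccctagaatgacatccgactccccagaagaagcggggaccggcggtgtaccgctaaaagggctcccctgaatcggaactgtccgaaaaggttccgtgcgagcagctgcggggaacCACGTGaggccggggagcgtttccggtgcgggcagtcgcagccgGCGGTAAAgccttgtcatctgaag
In these windows no match overlapped another. The Ppat window held 2 E2F matches in reverse complement and no E-box, and the Paics window held 1 E-box and no E2F match. Prps1 carried 1 CHOP-ATF4 match and 1 E2F match, Prps2 carried 1 E2F match, and the printed Nme1 window carried 1 E-box and 1 E2F match. Nme1 also has a window with its start at 93968025, which is not printed. That window held a different E-box and the same E2F match.

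Across all 32 genes with a window, the E-box occurred in 6 (Paics, Atic, Impdh2, Nme1, Tyms and Dtymk), or 18.8%, beside 8.09% of the 26994 genes in the promoter table. That background was not limited to genes detected in these cells, so it is an unlike set for each of the motifs. It was found in 3 of the 20 genes with a window that rose and in 2 of the 8 that fell. The E2F motif occurred in 5 genes (Prps1, Prps2, Ppat, Nme1 and Tyms), or 15.6%, beside 5.92% of all genes. The CHOP-ATF4 motif occurred in Prps1 alone, or 3.13%, beside 4.51% of all genes. These are letter matches and not measured binding.

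Among the 12 de novo purine genes, 8 rose, 2 fell and 2 did not pass the test, with a median log2 fold change of 0.37. That is 66.7% higher and 16.7% lower, beside 34.3% and 33.6% of all genes tested. Prps1 encodes a PRPP synthetase, which makes the sugar phosphate that both purine and pyrimidine synthesis draw on. Prps1 (chrX:140456613-140476140, plus strand) had 1474 and 1427 normalised counts across the control libraries, 3885 and 3824 under PC sg2, and 3523 and 3495 under PC sg5. Every PC library was above every control, and the rise was 2.53-fold (log2 fold change 1.34 ± 0.04 SE, adjusted p = 1.58e-17), the highest of the 35 genes. Its paralog Prps2 had 2386 and 2465 in the control libraries, 2415 and 2382 under PC sg2, and 2268 and 2435 under PC sg5. Those groups overlapped, and the log2 fold change of Prps2 was -0.03 with a 95% confidence interval from -0.12 to 0.06 (adjusted p = 0.560). The sequences of these paralogs are close, and how the counting treated reads that match both is not given in the sources used here.

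Ppat encodes the amidotransferase that commits PRPP to purines. Its libraries stood at 1489 and 1458 in the control libraries, 2422 and 2315 under PC sg2, and 2377 and 2477 under PC sg5, with no overlap between control and PC (log2 fold change 0.70 ± 0.05 SE, adjusted p = 9.73e-12). Paics, the head-to-head neighbour whose promoter is printed above, encodes the enzyme that carboxylates the imidazole ring and then adds aspartate. Paics had 16818 and 15976 in the control libraries, 14500 and 14106 under PC sg2, and 14506 and 14232 under PC sg5. All 4 PC libraries were below both controls, at 87.4% of the control mean (log2 fold change -0.19 ± 0.03 SE, adjusted p = 1.70e-06). The pair shares transcribed sequence at the start, 6.15% of the exon length of Ppat and 8.67% of that of Paics, and whether the counting used the strand there is not stated.

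The steps between them are carried by Gart, a trifunctional enzyme that adds glycine and a folate-borne formyl group, and Pfas, which takes nitrogen from glutamine. Gart had 5308 and 5322 in the control libraries, 7630 and 7698 under PC sg2, and 7777 and 7573 under PC sg5 (log2 fold change 0.53 ± 0.03 SE, adjusted p = 8.73e-13). An antisense gene, Gm15964, covers 19.7% of its exon length. Pfas had 2478 and 2613 in the control libraries, 4702 and 4778 under PC sg2, and 4549 and 4322 under PC sg5 (log2 fold change 0.85 ± 0.04 SE, adjusted p = 1.67e-14). For both genes the lowest PC library was above the highest control. Adsl, which releases fumarate and leaves behind the nitrogen that aspartate brought in, had 3802 and 3975 in the control libraries, 5443 and 5787 under PC sg2, and 5436 and 5675 under PC sg5 (log2 fold change 0.52 ± 0.04 SE, adjusted p = 3.18e-11). Atic, the bifunctional enzyme that closes the ring to inosine monophosphate (IMP), rose from a control mean of 8664 ± 175 (SD, n = 2) to 9909 ± 292 (SD, n = 4), a log2 fold change of 0.19 ± 0.03 SE (adjusted p = 6.74e-06).

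From IMP the route divides into guanine and adenine nucleotides. On the guanine branch, Gmps, the glutamine-using GMP synthetase, had 4979 and 5286 in the control libraries, 7563 and 7548 under PC sg2, and 7442 and 7159 under PC sg5 (log2 fold change 0.53 ± 0.03 SE, adjusted p = 3.59e-12). Impdh1 and Impdh2 encode the IMP dehydrogenases that precede it. Impdh1 rose from 1868 ± 79.1 (SD, n = 2) to 2182 ± 118 (SD, n = 4), with a log2 fold change of 0.22 ± 0.05 SE (adjusted p = 7.43e-04). Impdh2 did not pass the test, although all 4 PC libraries were below both controls by a small margin: its mean was 8917 in the controls and 8784 with the PC guides (log2 fold change -0.02, 95% confidence interval -0.08 to 0.04, adjusted p = 0.505). On the adenine branch, Adss, which joins aspartate to IMP, fell from 8028 ± 10.4 (SD, n = 2) to 7251 ± 196 (SD, n = 4), or 90.3% of control (log2 fold change -0.15 ± 0.03 SE, adjusted p = 1.37e-04).

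All 5 de novo pyrimidine genes passed the test, 4 higher and 1 lower, with a median log2 fold change of 0.65. Over all genes tested, 67.9% passed, 34.3% as higher and 33.6% as lower. Cad encodes the fused enzyme that starts the pathway by joining carbamoyl phosphate, made from glutamine, to aspartate. Cad (chr5:31054780-31078479, plus strand) had 5487 and 5631 in the control libraries, 8924 and 9315 under PC sg2, and 8619 and 8501 under PC sg5 (log2 fold change 0.67 ± 0.03 SE, adjusted p = 1.93e-14). Dhodh, the mitochondrial dehydrogenase that makes orotate, had 902 and 912 in the control libraries, 1338 and 1490 under PC sg2, and 1467 and 1424 under PC sg5 (log2 fold change 0.65 ± 0.06 SE, adjusted p = 1.99e-09). Umps couples orotate to PRPP and decarboxylates the product to UMP. Umps (chr16:33954782-33967038, minus strand) had 2650 and 2617 in the control libraries, 6055 and 6137 under PC sg2, and 6213 and 5951 under PC sg5. This 2.31-fold rise (log2 fold change 1.21 ± 0.03 SE, adjusted p = 6.52e-18) separated the groups by far more than the spread within them, and after Prps1 it was the highest of the 35 genes.

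The last step, amination of UTP to CTP with nitrogen from glutamine, has a pair of paralogous enzymes that moved in opposite directions. Ctps rose from 4810 ± 9.16 (SD, n = 2) to 6225 ± 154 (SD, n = 4), a log2 fold change of 0.37 ± 0.03 SE (adjusted p = 1.78e-09). Ctps2 (chrX:162901238-163032508, plus strand) had 3258 and 3229 in the control libraries, 1817 and 1784 under PC sg2, and 1781 and 1896 under PC sg5. It fell to 56.1% of control (log2 fold change -0.83 ± 0.04 SE, adjusted p = 3.20e-13), with no overlap between the groups.

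**Figure D2:**
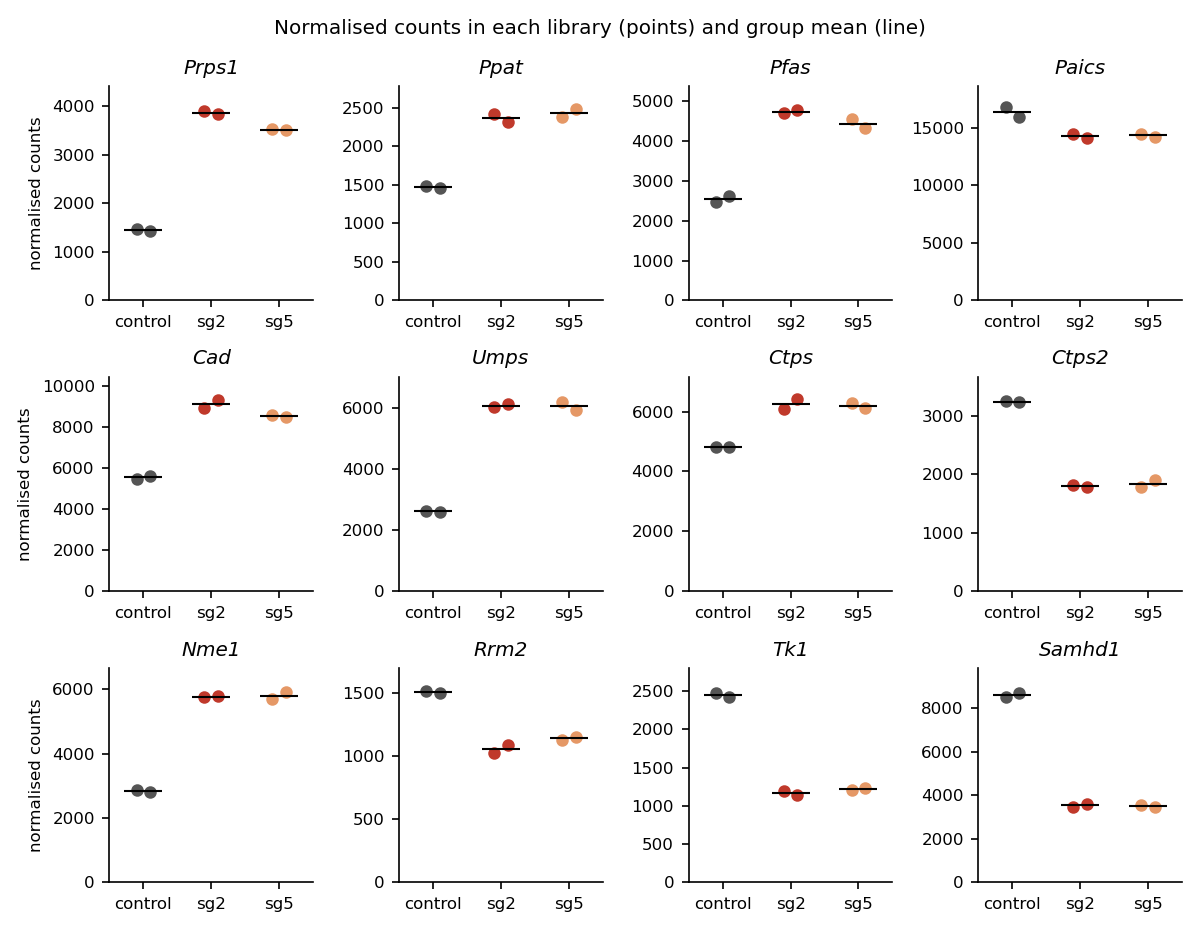
Normalised counts (vertical axis, from 0, a separate scale for each gene) of 12 nucleotide genes in the control, PC sg2 and PC sg5 libraries, with 1 point a library and a line at the mean of each guide. Only genes whose control and PC points do not overlap are shown. Prps2, Rrm1 and Tk2, whose groups overlapped, are left out. Over all genes tested, 36.6% lay wholly above the controls and 36.6% wholly below. Prps1, Umps and Nme1 are higher with both guides, and Ctps2, Tk1 and Samhd1 are lower with both.

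Read by the substrate that each enzyme uses, the genes were not uniform. Of the 3 genes whose enzymes take up aspartate, Cad rose while Paics and Adss fell, with a median log2 fold change of -0.15. Of the 6 genes of glutamine-using amidotransferases (Ppat, Pfas, Gmps, Cad, Ctps and Ctps2), 5 rose and Ctps2 fell, with a median of 0.60. Of the 3 genes of folate-using steps, Gart and Atic rose and Tyms fell, with a median of 0.19. Beside these small counts, 34.3% of all genes tested were called higher and 33.6% lower.

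All 8 salvage and kinase genes passed the test, 7 higher and 1 lower, with a median log2 fold change of 0.41. Of all genes tested, 67.9% passed, 34.3% as higher and 33.6% as lower. Hprt, which salvages hypoxanthine and guanine, had a mean of 2795 ± 119 (SD, n = 2) in the controls and 2995 ± 68.3 (SD, n = 4) with the PC guides. That difference of 0.10 ± 0.04 SE on the log2 scale only just passed (adjusted p = 0.0348) and was not past the threshold with PC sg5 alone (0.07, adjusted p = 0.182), nor with DESeq2 (adjusted p = 0.0659), without control replicate 2 (adjusted p = 0.383) or without PC sg2 replicate 1 (adjusted p = 0.0775). Aprt, the adenine salvage enzyme, rose by 0.44 ± 0.03 SE on the log2 scale, from 5555 ± 60.2 (SD, n = 2) to 7561 ± 143 (SD, n = 4) (adjusted p = 2.78e-11). Uck1 and Uck2 encode uridine-cytidine kinases. Uck1 had 1723 and 1838 in the control libraries, 2728 and 2795 under PC sg2, and 2654 and 2745 under PC sg5 (log2 fold change 0.62 ± 0.04 SE, adjusted p = 4.82e-11). Uck2 rose from 5011 ± 21.8 (SD, n = 2) to 6462 ± 220 (SD, n = 4), a log2 fold change of 0.37 ± 0.03 SE (adjusted p = 1.11e-09).

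Monophosphate kinases differed from each other. Guk1, the guanylate kinase, had 1691 and 1634 in the control libraries, 2368 and 2321 under PC sg2, and 2379 and 2486 under PC sg5 (log2 fold change 0.52 ± 0.05 SE, adjusted p = 1.01e-09). Cmpk1, the UMP and CMP kinase, was called lower with a mean of 2462 ± 33.4 (SD, n = 2) in the controls and 2236 ± 134 (SD, n = 4) with the PC guides (log2 fold change -0.14 ± 0.05 SE, adjusted p = 0.0201). That call was lost without control replicate 1 (adjusted p = 0.0643), control replicate 2 (0.128), PC sg2 replicate 2 (0.108) or PC sg5 replicate 2 (0.0503). Nme1 and Nme2 encode nucleoside diphosphate kinases and are neighbours on chromosome 11. Nme1 (chr11:93956979-93968521, minus strand) had 2879 and 2814 in the control libraries, 5747 and 5779 under PC sg2, and 5712 and 5902 under PC sg5, a 2.03-fold rise (log2 fold change 1.02 ± 0.03 SE, adjusted p = 9.77e-17). Nme2 rose from 7446 ± 105 (SD, n = 2) to 9674 ± 187 (SD, n = 4), a log2 fold change of 0.38 ± 0.03 SE (adjusted p = 1.22e-10). The gene model Gm20390 overlaps 12.5% of the exon length of Nme1 and 48.9% of that of Nme2, and the paralogs are close in sequence, so the split of reads between them is uncertain.

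Of the 10 deoxynucleotide genes, 4 rose, 4 fell and 2 did not pass the test, with a median log2 fold change of -0.01. That is 40% higher and 40% lower, near the 34.3% and 33.6% of all genes tested. The median of all genes was also -0.01, which the scaling of the libraries holds near no change. Samhd1, the triphosphohydrolase that destroys deoxynucleotides, was the gene that fell furthest among all 35. Samhd1 (chr2:157097533-157135265, minus strand) had 8497 and 8677 in the control libraries, 3477 and 3603 under PC sg2, and 3548 and 3461 under PC sg5. The PC mean was 41.0% of control (log2 fold change -1.29 ± 0.03 SE, adjusted p = 2.10e-18). Tk1, the cytosolic thymidine kinase, had 2478 and 2419 in the control libraries, 1198 and 1146 under PC sg2, and 1205 and 1235 under PC sg5, or 48.8% of control (log2 fold change -1.03 ± 0.05 SE, adjusted p = 7.54e-14). Its mitochondrial counterpart Tk2 had 1608 and 1666 in the control libraries, 1667 and 1585 under PC sg2, and 1573 and 1535 under PC sg5. The Tk2 groups overlapped (log2 fold change -0.04, 95% confidence interval -0.15 to 0.06, adjusted p = 0.472).

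Ribonucleotide reductase joins a large subunit, Rrm1, to a small subunit, either Rrm2, which cycling cells use in S phase, or Rrm2b, a p53 target. Rrm1 had 6416 and 6729 in the control libraries, 6754 and 6563 under PC sg2, and 6722 and 6710 under PC sg5, with overlapping groups (log2 fold change 0.03, 95% confidence interval -0.04 to 0.09, adjusted p = 0.498). The small subunits went opposite ways. Rrm2 had 1521 and 1503 in the control libraries, 1027 and 1091 under PC sg2, and 1133 and 1154 under PC sg5 (log2 fold change -0.46 ± 0.06 SE, adjusted p = 2.42e-07). Rrm2b had 1040 and 1079 in the control libraries, 1565 and 1487 under PC sg2, and 1483 and 1477 under PC sg5 (log2 fold change 0.50 ± 0.05 SE, adjusted p = 3.28e-08). Rrm2 was thus below both controls and Rrm2b above both controls in each of the 4 PC libraries.

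The thymidylate genes also moved both ways. Dctd, the deaminase that turns dCMP into the dUMP that thymidylate synthase uses, had 1680 and 1763 in the control libraries, 2768 and 2765 under PC sg2, and 2835 and 2695 under PC sg5 (log2 fold change 0.68 ± 0.04 SE, adjusted p = 7.02e-12). Tyms, thymidylate synthase itself, fell from 1596 ± 41.5 (SD, n = 2) to 1270 ± 21.5 (SD, n = 4), or 79.6% of control (log2 fold change -0.33 ± 0.05 SE, adjusted p = 1.04e-05). Dtymk, the thymidylate kinase, rose from 3040 ± 100.3 (SD, n = 2) to 4019 ± 135 (SD, n = 4) (log2 fold change 0.40 ± 0.04 SE, adjusted p = 1.12e-08). Dck, which phosphorylates deoxycytidine and other deoxynucleosides, rose from 690 ± 10.2 (SD, n = 2) to 924 ± 52.7 (SD, n = 4) (log2 fold change 0.42 ± 0.07 SE, adjusted p = 1.22e-05).

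On a scale of normalised counts per kb of merged exon, control levels of the 35 genes ran from 116 for Rrm2b and 143 for Dhodh to 5224 for Paics and 6359 for Nme2. Merged exons can be longer than the transcript that the cells express. Levels and sums set between genes are therefore rough and depend on the annotation. The genes with the highest levels per kb did not share a direction: Nme2 reached 8262 with the PC guides and Aprt went from 3440 to 4682, while Paics went from 5224 to 4567. Summed over each group per kb, de novo purine genes reached 113% of the control mean with the PC guides (15911 ± 191 SD, n = 2, and 17906 ± 63.4 SD, n = 4). De novo pyrimidine genes reached 143% (3716 ± 5.37 and 5317 ± 101), and salvage and kinase genes reached 132% (16009 ± 32.0 and 21129 ± 211). The deoxynucleotide genes came to 96.0% (5232 ± 10.8 and 5021 ± 46.1). These sums weight each gene by its level, so Paics and Nme2 carry much of the purine and salvage sums.

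**Figure D3:**
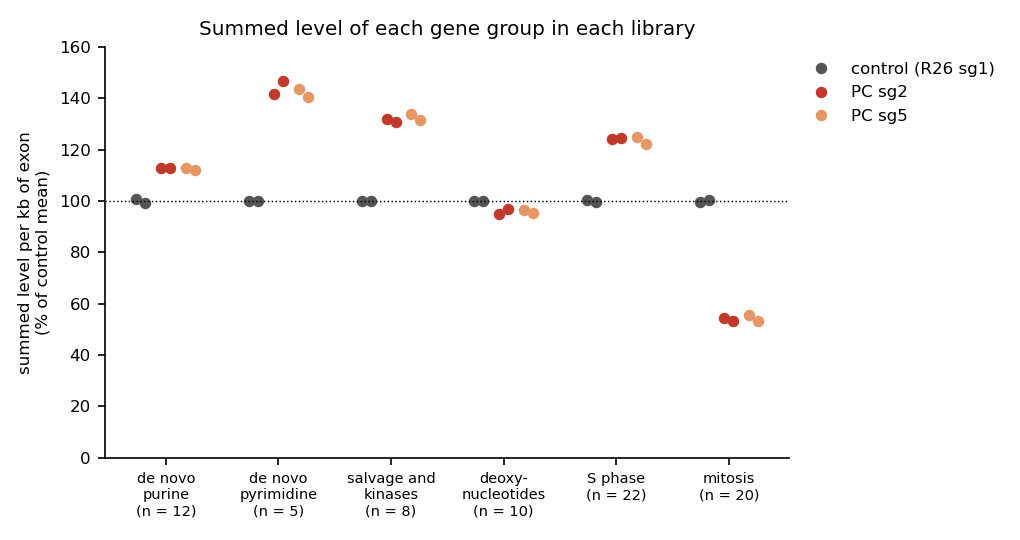
Summed normalised counts per kb of exon for the 4 nucleotide groups and for the S phase and mitosis lists, as percent of the control mean (vertical axis, from 0, dotted line at 100), with 1 point a library. The PC libraries sit near 113% for de novo purine, 143% for de novo pyrimidine, 132% for salvage and kinases and 96.0% for deoxynucleotides, beside 124% for S phase and 54.1% for mitosis.

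Several enzymes of the pathway come as a pair of paralogs, and their proportions per kb of exon shifted. Prps2 made up 46.2% ± 1.14 (SD, n = 2) of the summed level of Prps1 and Prps2 in the controls and 24.9% ± 1.01 (SD, n = 4) with the PC guides. Ctps2 made up 32.1% ± 0.18 of Ctps and Ctps2 in the controls and 17.0% ± 0.69 with the PC guides. In the thymidine kinases the share of Tk2 was 49.3% ± 1.06 in the controls and 65.9% ± 1.21 with the PC guides, since Tk1 fell. Rrm2b formed 17.5% ± 0.50 of the small reductase subunits in the controls and 29.3% ± 1.63 with the PC guides. The shares of Impdh2 (83.6% ± 0.54 and 81.2% ± 0.78), Uck2 (58.6% ± 1.01 and 54.4% ± 1.30) and Nme2 (88.2% ± 0.32 and 82.7% ± 0.41) differed less. Control and PC libraries did not overlap for any of the 7 pairs, and these shares are given as a description, on which no test was run. The size of a share depends on the annotated exon lengths, such as 9134 bases for Rrm2b and 2771 for Rrm2. Among single genes tested, 36.6% had all 4 PC libraries above both controls and 36.6% had all 4 below.

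**Figure D4:**
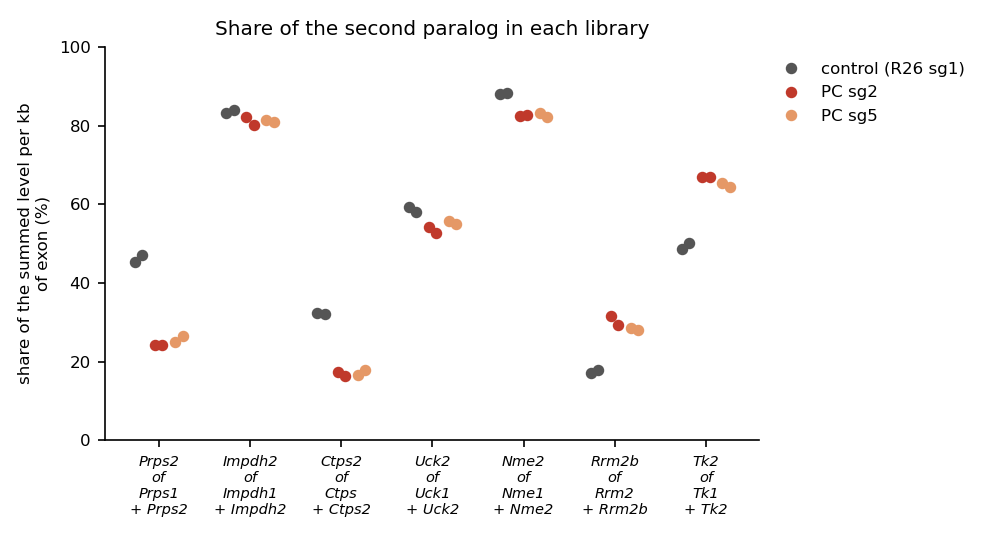
Share (percent, vertical axis) that the second gene of each of 7 paralog pairs contributes to the summed normalised counts per kb of exon, with 1 point a library. Control and PC points do not overlap for any pair, beside 36.6% of single genes tested wholly above the controls and 36.6% wholly below. The shares of Rrm2b and Tk2 are higher with the PC guides (29.3% and 65.9% on average) and the other 5 are lower.

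Taken guide by guide, PC sg2 against control called 31 of the 35 genes (23 higher, 8 lower; all genes 64.5%, 32.9% and 31.6%). PC sg5 against control called 30 (22 higher, 8 lower; all genes 64.5%, 32.6% and 31.8%), the difference being Hprt. Both comparisons use the same control libraries, all with the control guide R26 sg1. A trait of the cells with that guide cannot be told apart from an effect of targeting Pcx. Prps1 had log2 fold changes of 1.41 with PC sg2 and 1.27 with PC sg5, Umps had 1.21 with each, and Samhd1 had -1.28 and -1.29. Set against each other, the guides did not differ past the threshold for any of the 35 genes in limma, edgeR or DESeq2, in a comparison that called 0.242% of all genes. Without adjustment, 3 genes had a p under 0.05 in limma (Prps1, Pfas and Cad), all lower with PC sg5. The smallest adjusted p was 0.286, for Prps1, with a log2 difference of -0.14 and a 95% confidence interval from -0.23 to -0.04. Across the 35 genes the 95% confidence intervals of the difference between guides reached no lower than -0.27 (Dck) and no higher than 0.25 (Rrm2), although the Pcx transcript differed between the guides.

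Genes that feed the pathway were read from lists chosen by function. Of 12 genes of folate one-carbon supply tested, 11 rose and 1 did not pass the test, with a median log2 fold change of 0.44, beside 34.3% of all genes called higher. With PC sg2 alone, 10 rose and 2 did not pass the test. With PC sg5 alone, 8 rose, 3 did not pass the test and Mthfd2l fell by 0.19 (adjusted p = 0.0209). Mthfd2, the mitochondrial folate dehydrogenase, had 1.21 ± 0.03 SE, Slc19a1, the reduced folate carrier, had 0.90 ± 0.05, Shmt2, the mitochondrial serine hydroxymethyltransferase, had 0.79 ± 0.03, and Aldh1l2 had 0.62 ± 0.03. Of 11 genes of aspartate supply tested, 5 rose, 4 fell and 2 did not pass the test, with a median of 0.25. That is 45.5% higher and 36.4% lower, beside 34.3% and 33.6% of all genes tested. Got1, the cytosolic aspartate aminotransferase, rose from 2706 to 7615 normalised counts on average (1.49 ± 0.03 SE, adjusted p = 2.40e-19). The glutamate and aspartate transporter Slc1a3 fell by 1.41 and argininosuccinate synthase Ass1, which consumes aspartate, fell by 0.53, while asparagine synthetase Asns rose by 0.60 on the log2 scale.

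Of 10 regulators of the pathway, 5 rose, 3 fell and 2 did not pass the test, with a median of 0.14. That is 50% higher and 30% lower, beside 34.3% and 33.6% of all genes tested. Myc, a transcription factor with many targets among nucleotide synthesis genes, rose from 2788 to 20634 normalised counts on average (log2 fold change 2.89 ± 0.03 SE, adjusted p = 4.76e-24). Atf4, the amino acid stress factor, rose from 12942 to 23871 (0.88 ± 0.02 SE, adjusted p = 2.14e-18). E2f3 rose by 0.44 ± 0.04 and Srebf1 fell by 0.63 on the log2 scale. The log2 fold changes of the regulators ran from -1.96 to 2.89, and 1 regulator that is not named was called at least 2-fold lower. The part of these transcripts in the changes of the nucleotide genes was not tested.

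Because several deoxynucleotide genes are transcribed with the cell cycle, cycle genes are given beside them. Of 20 mitosis genes all 20 fell, beside 33.6% of all genes tested called lower. Their median log2 fold change was -0.96. Their summed level per kb was 54.1% of control, from 14684 and 14770 in the controls to between 7819 and 8201 in the PC libraries. Mki67, a proliferation marker, fell from 7845 to 3184 (log2 fold change -1.30 ± 0.04 SE), Top2a fell by 1.08, Cenpf by 1.26 and Ccnb2 by 2.09 on the log2 scale. Of 22 S phase genes, 12 rose, 7 fell and 3 did not pass the test, with a median of 0.17 and a summed level of 124% of control. That is 54.5% higher and 31.8% lower, beside 34.3% and 33.6% of all genes tested. The replication licensing genes went both ways: Cdt1 (0.98 ± 0.04 SE), Mcm7 (0.83 ± 0.03), Mcm2 (0.79 ± 0.03), Mcm3 (0.62 ± 0.03) and Mcm4 (0.31 ± 0.03) rose, Mcm5 fell by 0.17 and Mcm6 by 0.21, and Cdc6 did not pass the test (-0.05, adjusted p = 0.591). Of 13 p53 targets tested, 8 rose, 4 fell and 1 did not pass the test, with a median of 0.20. Here 61.5% were higher and 30.8% lower, beside the same shares of all genes. Among the p53 targets Aen had 1.24 ± 0.03, Sesn2 had 0.81 ± 0.04, Mdm2 had 0.35 ± 0.02 and Trp53inp1 had -0.69 ± 0.04. Mdm2 was very high in all groups, with a mean of 234878 normalised counts in the controls and 299985 with the PC guides. The control mean of Col1a1 was 269755. The activity of p53 was not tested. The log2 fold changes of the p53 targets ran from -1.50 to 1.24, and 1 target that is not named was called at least 2-fold lower. The part of cell cycle position in the values of Tk1, Tyms and Rrm2 was not tested.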

How the data were processed

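RNA was measured in 6 libraries, 2 for each of 3 guides. The authors deposited 1 table of normalised counts for 16540 genes, a signal in which read counts are scaled by 1 size factor for each library. Per the submitters' processing notes, the tools were bcl2fastq 2.17, Trimmomatic, STAR, featureCounts and DESeq2, and the build was GRCm38. The sources used here do not give their settings, the annotation or the use of strand. In every library, all values above 0 were whole multiples of 1 step (tolerance 0.01), so whole reads could be recovered. The 3-read floor lay between 2.18 and 6.41 normalised counts and covers counting error only.

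Gene identifiers were matched to GENCODE mouse genes, with a symbol for 16491 and none for 49. The log2 of each normalised count plus 1 was fitted with limma 3.58.1 (R 4.3.3) as 3 groups in 1 model, with moderation that followed an intensity trend. Tests were two-sided, adjusted by Benjamini-Hochberg and called at 0.05. A gene needed 10 normalised counts in 2 or more libraries to be tested, which left out 14. Fold changes are on this log2 scale and understate changes of low genes. There were 3 residual degrees of freedom, and the prior ones had a median of 17.3. A level per kb divides by merged exon length.

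Alternatives were other pseudocounts (0.5 and 10), no filter, a mean of at least 50, quantile normalization, edgeR 4.0.16 and DESeq2 1.42.0 on the recovered reads, no trend, a replicate block and leaving out each library. All 35 genes are named. Library values are given for those with an absolute log2 fold change of at least 0.5 and for some below it, and of each other list up to 4 genes with the smallest p could be named. Mcm4, Mcm5, Mcm6, Cdc6, Mthfd2l and Prpsap2 were named outside that rule. The genes and lists were chosen with earlier results of these data known. The code was tested on simulated counts.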

Additional observations from a re-analysis of the deposited data

How the results depend on the processing

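Under 15 other settings, between 28 and 31 of the 35 nucleotide genes were called for both PC guides against control, beside 31 as reported, and between 9795 and 11424 of all genes, beside 11222. The total called in each of the 4 nucleotide groups stayed within 1.5 times of that reported. The 1 salvage and kinase gene called lower, Cmpk1, was not called under 5 of these settings. Of single genes, Hprt lost its call under 5 settings, including quantile normalization (log2 fold change 0.07, adjusted p = 0.137) and no intensity trend (adjusted p = 0.0965). For Cmpk1 these included no intensity trend (adjusted p = 0.158). Impdh1 lost its call under 1, no intensity trend (adjusted p = 0.0504). Rrm1, which was not called, changed sign without control replicate 1: its log2 fold change ranged from -0.0091 to 0.0596 over the settings that leave out a library. With a replicate block, 31 of the 35 genes were called, 23 higher and 8 lower, and 11352 of all genes. Same-numbered replicates showed correlations of their deviations of -0.02, 0.03 and 0.03 over 16526 genes, so the numbers were not read as a pairing. With 2 libraries a guide, the spread is estimated from 3 residual degrees of freedom and shared across genes, and PC sg5 replicate 2 had the fewest reads.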

Other observations

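Genes around the pathway that are not counted among the 35 were also read, in 3 lists. Of 19 other nucleotide kinase and salvage genes tested, 8 rose, 8 fell and 3 did not pass the test, with a median log2 fold change of -0.10. That is 42.1% in each direction, beside 34.3% higher and 33.6% lower over all genes tested. Prpsap1, an associated protein of PRPP synthetase, rose from 3362 to 8023 normalised counts on average (log2 fold change 1.25 ± 0.03 SE, limma adjusted p = 7.94e-19), and Prpsap2, its paralog, rose from 963 to 1708 (0.83 ± 0.05 SE, limma adjusted p = 6.03e-12). Prpsap2 was singled out after its values were seen. Nme6, a nucleoside diphosphate kinase family member, rose by 1.35 ± 0.07 SE. Cmpk2, a mitochondrial nucleotide kinase, fell from 756 to 159 (log2 fold change -2.24 ± 0.12 SE), and adenosine kinase Adk fell by 0.72 on the log2 scale.

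Of 17 nucleotide breakdown genes tested, 8 rose, 6 fell and 3 did not pass the test, with a median of 0.16. That is 47.1% higher and 35.3% lower, beside 34.3% and 33.6% of all genes tested. Guanine deaminase Gda fell from a mean of 1490 to one of 407 (log2 fold change -1.87 ± 0.08 SE, limma adjusted p = 5.20e-15), and xanthine dehydrogenase Xdh, the last enzyme of purine breakdown to urate, fell from 16201 to 12330 (-0.40 ± 0.03 SE). The nucleotidase Nt5c2 had -0.71 ± 0.06 SE, and Itpa, which removes inosine triphosphate, had 0.49 ± 0.04 SE. Of the nucleoside transporters, 3 were tested. Slc29a1, the main equilibrative carrier of the plasma membrane, fell from 10684 to 5831 (log2 fold change -0.87 ± 0.03 SE, limma adjusted p = 1.78e-16) and Slc29a3 fell by 0.37, while Slc29a2 rose from 212 to 345 (0.70 ± 0.11 SE).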
